A study of Mus musculus with 13 samples.

Results

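The 10 genes described here encode proteins that bring fatty acids into liver cells, bind them there, or release them from circulating lipids: Cd36, Slc27a1, Slc27a2, Slc27a4, Fabp1, Fabp2, Fabp5, Lpl, Lipc and Vldlr. They were chosen by gene symbol for that role, and each was found among the 53392 genes of the count table. All 10 passed the filter on low counts, as did 14317 genes in total. RNA from whole livers of 13 female mice, 8 to 14 weeks old, was sequenced after 4 weeks on a liquid diet in which ethanol (Etoh) supplied 28% of calories. The study was designed to choose a control for induction of acid ceramidase, the enzyme that splits ceramide into sphingosine and a fatty acid. All mice were littermates that carried Albumin-Cre together with Rosa26-loxP-stop-loxP-rtTA, and TRE-ASAH1 was present in ASAH+ mice alone. In this model doxycycline (Dox) is needed for the transgene to be transcribed, and the albumin promoter of Cre limits it to hepatocytes. The 3 groups were 4 ASAH- mice given Dox at 200 mg/l in the ethanol diet (ASAH- Etoh-Dox), 5 ASAH+ mice on the same diet (ASAH+ Etoh-Dox) and 4 ASAH+ mice on the ethanol diet without Dox (ASAH+ Etoh).

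For ASAH+ mice the sample titles name the Dox treatment opposite to that in the sample descriptions and induction labels, and the latter were used here. The design text gives 4 mice in each group, whereas 5 libraries are described as ASAH+ Etoh-Dox. Counts per library totalled 17819486 to 35358711, with a median of 24454043. Levels below are in CPM, that is counts divided by normalized library size, and mice of a group are listed in the order of their replicate numbers. Asah1, read first as a check of the labels, was at 47.7, 40.3, 52.9 and 55.4 CPM in ASAH- Etoh-Dox mice. It was at 10472, 9653, 15226, 12753 and 15801 CPM in ASAH+ Etoh-Dox mice, and at 46.8, 44.3, 46.7 and 48.1 CPM in ASAH+ Etoh mice. The induced mice therefore stood apart from every mouse of the other groups, as the descriptions and induction labels have it, and Asah1 was higher in them than in ASAH- Etoh-Dox mice by 8.01 on the log2 scale (SE 0.20, 20 of 20 pairs of mice).

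Long-chain fatty acids reach the liver bound to albumin or inside lipoprotein particles. Lipases at the vessel wall release fatty acids from triglyceride, receptors and transport proteins at the cell surface move them inward, and binding proteins carry them through the cytosol to the sites where they are oxidized or esterified. In liver this supply is among the determinants of triglyceride storage.

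Markers of hepatocytes were abundant in each library. The summed level of Alb, Ttr, Apoa1, Cps1, Ass1 and Hnf4a was 82166 to 129499 CPM, with Alb the most abundant. The libraries also held RNA of other liver cells: 6 of 6 markers were found for endothelial cells (108.8 to 231 CPM in sum, Clec4g highest), for Kupffer cells (233 to 665 CPM, Cd5l highest) and for stellate cells (234 to 358 CPM, Dcn highest). Markers of cholangiocytes summed to 3.57 to 8.77 CPM with Sox9 highest, and those of lymphocytes to 0.645 to 3.18 CPM with Cd79a highest. Adipocyte markers, which bear on Lpl, Cd36 and Fabp4 because fat cells hold much of their RNA, reached at most 0.144 CPM in sum, and 1 of 5 had no count in any mouse. Pancreas markers reached at most 0.671 CPM, with 1 of 4 at 0 in all mice. In whole tissue, fewer cells of a type and less RNA per cell cannot be told apart.

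The mouse ASAH- Etoh-Dox replicate 3 had the highest summed level of the markers of Kupffer cells (665 CPM, against 449 CPM for the next mouse and a median of 314 CPM), of endothelial cells (231 CPM, next 184 CPM), of stellate cells (358 CPM, next 336 CPM), of red cells (1687 CPM, next 876 CPM) and also of hepatocytes (129499 CPM, next 121035 CPM). The same mouse had the highest Cd36, at 247 CPM. Red cell markers (Hbb-bs, Hbb-bt, Hba-a1, Hba-a2 and Alas2, with Hbb-bs highest) differed with Dox as well. Their sum was 226, 757, 1687 and 216 CPM in ASAH- Etoh-Dox mice, 700, 240, 876, 356 and 641 CPM in ASAH+ Etoh-Dox mice, and 135, 160, 175 and 192 CPM in ASAH+ Etoh mice. Each mouse without Dox was thus below each mouse with Dox, and the part of this difference in the results below was not tested. Endothelial markers summed to 109 to 154 CPM in ASAH+ Etoh-Dox mice and to 137 to 184 CPM in ASAH+ Etoh mice.

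Levels of different genes are compared per kilobase of the merged exons of each gene, as means over the 13 mice. Fabp1, the liver fatty acid-binding protein, had by far the highest level at 4607 ± 964 CPM per kb (SD, n = 13). Slc27a2, a transporter of the FATP family that also activates very long-chain fatty acids, followed at 404 ± 78.7 CPM per kb (SD, n = 13). Lipc, the lipase made by hepatocytes, was at 93.0 ± 11.4 CPM per kb (SD, n = 13), and Fabp2, the intestinal fatty acid-binding protein, at 82.9 ± 16.2 CPM per kb (SD, n = 13). These neighbours were not separated beyond their spread, since Lipc was above Fabp2 in 9 of 13 mice. Cd36 lay below Fabp2 in each mouse, at 49.8 ± 14.9 CPM per kb (SD, n = 13), although the ranges over mice overlapped. Slc27a4 came next at 7.74 ± 0.837 CPM per kb (SD, n = 13), and was above Fabp5 in 12 of 13 mice.

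The lowest levels per length were those of Fabp5 at 3.32 ± 1.83, Vldlr at 2.27 ± 0.546, Lpl at 2.20 ± 0.794 and Slc27a1 at 1.37 ± 0.237 CPM per kb (SD, n = 13). Fabp5 was above Vldlr in 8 of 13 mice and Vldlr above Lpl in 7 of 13, so the order of these 3 genes was not separated beyond the spread. Per kilobase of the longest annotated transcript their order differed: Lpl had 5.61, Fabp5 3.66, Vldlr 2.87 and Slc27a1 2.48 CPM per kb. Together the 10 genes took 0.366 to 0.566% of the counts of a library. The counts behind these levels ran from 122 for Fabp5 in its lowest mouse to 97378 for Fabp1 in its highest.

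**Figure D1:**
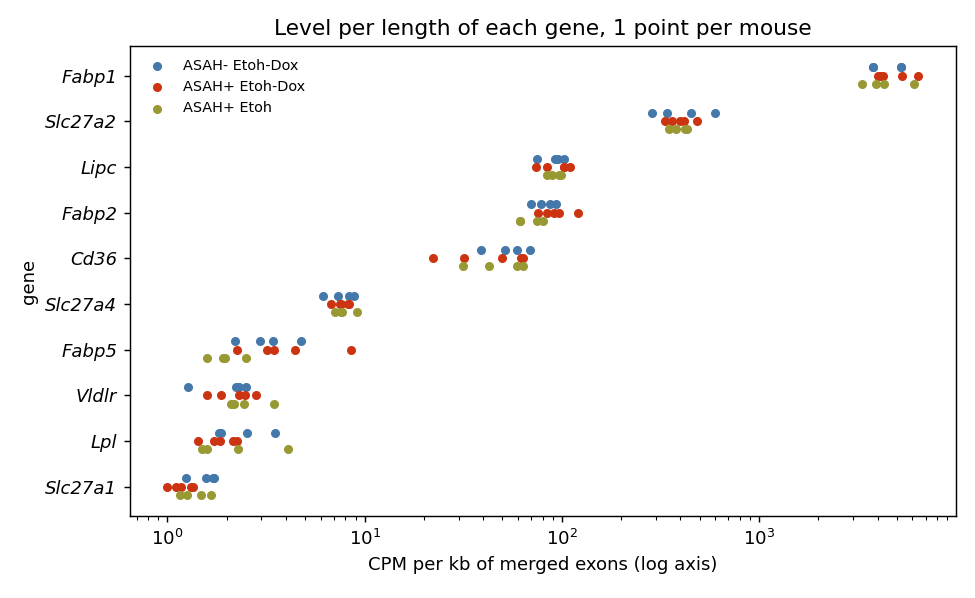
Level of each of the 10 genes in each mouse, as CPM per kilobase of merged exons on a log axis, with genes ordered by their mean. Points are mice, coloured by group, and the genes run from Fabp1 at a mean of 4607 to Slc27a1 at a mean of 1.37 CPM per kb.

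The genes lie on 7 chromosomes of the GRCm38 build. Cd36 (ENSMUSG00000002944.15) is at chr5:17781690-17888801 on the minus strand, and Lipc (ENSMUSG00000032207.10) at chr9:70798128-70952226 on the minus strand. The other 8 are on the plus strand. Slc27a1 (ENSMUSG00000031808.7) is at chr8:71568882-71587302 and Lpl (ENSMUSG00000015568.16) on the same chromosome at chr8:68880491-68907448. Slc27a2 (ENSMUSG00000027359.16) is at chr2:126552407-126588243 and Slc27a4 (ENSMUSG00000059316.2) at chr2:29802634-29817522. Fabp1 (ENSMUSG00000054422.7) is at chr6:71199827-71205023, whereas Fabp2 (ENSMUSG00000023057.5) at chr3:122895072-122899506 and Fabp5 (ENSMUSG00000027533.10) at chr3:10012548-10016607 share a chromosome. Vldlr (ENSMUSG00000024924.14) is at chr19:27216484-27254231.

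Mice of the same group differed more in some of these genes than in others. The within-group SD of log2 CPM was 0.53 for Fabp5, 0.52 for Cd36 and 0.47 for Lpl, and 87.5%, 87.3% and 83.1% of tested genes had a smaller one. Vldlr followed at 0.37. The least variable were Slc27a4 at 0.18, Lipc at 0.20 and Slc27a1 at 0.20. The median was 0.30 over the 10 genes, 0.24 over all 14317 genes tested, and 0.17 over the 7942 tested genes at or above the mean level of the lowest of the 10. Between the highest and the lowest mouse Fabp5 differed 5.36-fold, Cd36 3.11-fold, Lpl 2.87-fold and Vldlr 2.75-fold, against 1.49-fold for Slc27a4.

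Within groups some of these genes moved together. Pearson's r was computed for the 45 pairs on log2 CPM less the group mean over the 13 mice, as a description without a test, and its median was 0.07. Slc27a4 and the lipoprotein receptor gene Vldlr had the highest value, r = 0.86. Fabp1 and Fabp2 had r = 0.74, and Fabp2 and Fabp5 had r = 0.74. The lowest value was that of Slc27a2 with Slc27a4, r = -0.75, so the transporter gene with the highest level was high where its relative was low. Slc27a4 also had r = -0.63 with Fabp2, and Slc27a2 r = -0.63 with Vldlr. Points of this comparison share a library, and each value is that of the same 13 mice.

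**Figure D2:**
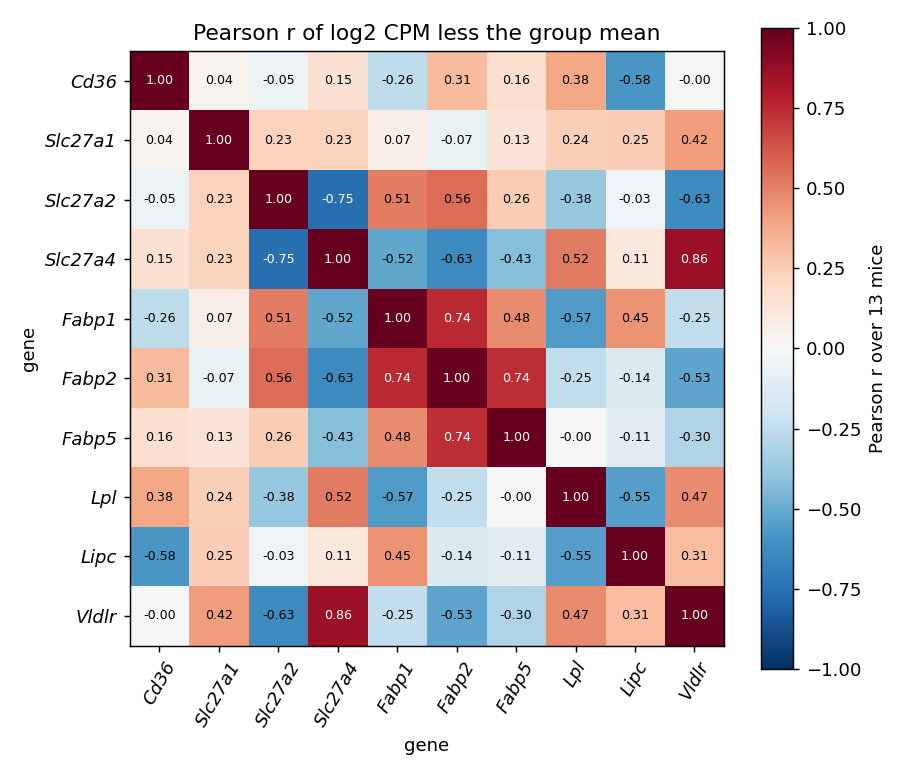
Pearson's r between each pair of the 10 genes over 13 mice, computed on log2 CPM less the mean of the mouse's group. The scale runs from -1 (blue) to 1 (red). The highest r is that of Slc27a4 with Vldlr, 0.86, and the lowest that of Slc27a2 with Slc27a4, -0.75.

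The stretches before the transcription starts of 5 genes are shown because these genes made up the pairs with the highest and lowest r other than the pair of Fabp2 and Fabp5. Each is the 250 bases before a RefSeq start on GRCm38.p6, read 5′ to 3′ on the plus strand. Fabp1 is shown at chr6:71199629-71199878, Fabp2 at chr3:122894822-122895071, Slc27a2 at chr2:126552774-126553023, Slc27a4 at chr2:29802384-29802633, and Vldlr at chr19:27216234-27216483, before the first of its 2 starts. Capitals mark AGGTCA, a nuclear receptor half-site, and GTTAAT, an HNF1 half-site, on either strand (TGACCT and ATTAAC on the strand shown).
Fabp1: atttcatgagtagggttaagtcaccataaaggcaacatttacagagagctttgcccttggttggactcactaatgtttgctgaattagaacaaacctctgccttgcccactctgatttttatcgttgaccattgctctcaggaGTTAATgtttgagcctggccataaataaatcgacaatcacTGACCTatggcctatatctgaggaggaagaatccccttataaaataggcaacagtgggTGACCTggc
Fabp2: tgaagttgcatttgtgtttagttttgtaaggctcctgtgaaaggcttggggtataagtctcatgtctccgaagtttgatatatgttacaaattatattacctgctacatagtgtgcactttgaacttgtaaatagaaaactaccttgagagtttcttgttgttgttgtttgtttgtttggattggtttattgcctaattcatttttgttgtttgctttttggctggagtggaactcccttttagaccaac
Slc27a2: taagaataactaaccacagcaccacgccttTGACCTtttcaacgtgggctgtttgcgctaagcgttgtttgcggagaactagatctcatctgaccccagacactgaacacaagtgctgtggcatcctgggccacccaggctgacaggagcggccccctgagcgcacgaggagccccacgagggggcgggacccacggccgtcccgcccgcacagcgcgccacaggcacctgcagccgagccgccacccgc
Slc27a4: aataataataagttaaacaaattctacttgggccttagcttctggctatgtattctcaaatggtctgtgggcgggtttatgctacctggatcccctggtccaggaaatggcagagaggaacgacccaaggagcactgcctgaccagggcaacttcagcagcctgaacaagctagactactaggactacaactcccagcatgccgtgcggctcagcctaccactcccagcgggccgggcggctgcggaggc
Vldlr: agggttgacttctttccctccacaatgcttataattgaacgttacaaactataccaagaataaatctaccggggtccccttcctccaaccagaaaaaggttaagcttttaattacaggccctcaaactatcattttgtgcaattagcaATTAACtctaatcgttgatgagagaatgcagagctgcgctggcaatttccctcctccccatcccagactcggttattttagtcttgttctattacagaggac

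Of the 10 genes 8 had such windows, 12 in all, and 4 motifs were searched in them on both strands. AGGTCA was found in 4 of the 12 windows: before Fabp1 at -67 and -9 from the start, before Slc27a2 at -220, before Cd36 at -228, and before 1 of the 2 starts of Lipc at -88 and -76. The same letters were in 14% of the 32851 windows of mouse genes, which are counted in the same way. GTTAAT was found in 2 of the 12 windows, before Fabp1 at -107 and before Vldlr at -102, and in 6.43% of all windows. CACGTG, an E-box, was found in 1 of the 12, at -202 before 1 of the 3 starts of Slc27a1, and in 6.02% of all windows. TTATGTAA, a D-box, was found in 0 of the 12 and in 0.819% of all windows. The windows of Fabp2 and Slc27a4 held none of the 4 motifs, so neither gene shared one with its partners in the pairs given above. Slc27a2 and Vldlr, also paired there, held different motifs. Outside those pairs, Fabp1 had AGGTCA in common with Slc27a2 and GTTAAT in common with Vldlr. Fabp5 and Lpl had no window.

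Cd36, the surface receptor that binds long-chain fatty acids and oxidized lipoproteins, was at 186, 214, 247 and 141 CPM in ASAH- Etoh-Dox mice. It was at 224, 179, 229, 79.6 and 114 CPM in ASAH+ Etoh-Dox mice and at 229, 114, 154 and 212 CPM in ASAH+ Etoh mice. The groups overlapped over most of this range, and the lowest mouse was an induced one.

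Of the transporters, Slc27a1 had the levels that differed most between groups. It was at 7.29, 10.02, 9.12 and 9.90 CPM in ASAH- Etoh-Dox mice, at 6.49, 5.83, 7.67, 6.87 and 7.91 CPM in ASAH+ Etoh-Dox mice, and at 7.37, 6.77, 8.67 and 9.68 CPM in ASAH+ Etoh mice. Each induced mouse was below 3 of the 4 ASAH- Etoh-Dox mice, and 2 of the 5 were above the remaining one, replicate 1. Slc27a2 was at 1078, 1694, 1276 and 2235 CPM in ASAH- Etoh-Dox mice, at 1815, 1365, 1498, 1253 and 1564 CPM in ASAH+ Etoh-Dox mice, and at 1580, 1627, 1419 and 1316 CPM in ASAH+ Etoh mice. The ASAH- Etoh-Dox mice held both its lowest and its highest value. Slc27a4, the transporter known best from the intestine and skin, was at 37.0, 32.4, 39.1 and 27.0 CPM, at 33.2, 29.7, 33.5, 36.6 and 36.2 CPM, and at 33.6, 31.2, 34.1 and 40.2 CPM in the same groups. Its group means were 33.9, 33.8 and 34.8 CPM, and all groups overlapped.

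Fabp1 ranged from 1847 to 3542 CPM over the 13 mice, with a median of 2352 CPM and overlapping groups. Fabp2 was at 67.5, 83.9, 75.8 and 90.5 CPM in ASAH- Etoh-Dox mice, at 88.6, 93.9, 117, 73.0 and 81.3 CPM in ASAH+ Etoh-Dox mice, and at 71.9, 77.8, 59.1 and 59.0 CPM in ASAH+ Etoh mice. The mice without Dox were low, and 1 of them, replicate 2, was above 1 induced mouse, replicate 4. Fabp5, the epidermal fatty acid-binding protein, was at 7.87, 10.5, 12.2 and 16.9 CPM in ASAH- Etoh-Dox mice. It was at 11.4, 15.8, 30.4, 12.4 and 8.09 CPM in ASAH+ Etoh-Dox mice and at 5.67, 8.98, 6.82 and 7.03 CPM in ASAH+ Etoh mice. The induced replicate 3 was the highest mouse for Fabp1, Fabp2 and Fabp5 alike.

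Lpl, which frees fatty acids from triglyceride-rich lipoproteins at the capillary wall, was at 19.7, 26.6, 36.8 and 19.1 CPM in ASAH- Etoh-Dox mice, at 19.3, 22.6, 18.04, 23.7 and 15.01 CPM in ASAH+ Etoh-Dox mice, and at 24.0, 16.6, 15.8 and 43.1 CPM in ASAH+ Etoh mice. The highest mouse of each uninduced group, replicate 3 of ASAH- Etoh-Dox and replicate 4 of ASAH+ Etoh, stood well above all induced mice, and the other mice overlapped. Lipc, which acts on lipoprotein remnants and high-density lipoproteins, ranged from 159 to 238 CPM with a median of 206 CPM. Vldlr, which takes up lipoproteins rich in apolipoprotein E, was at 22.4, 25.2, 23.3 and 12.8 CPM in ASAH- Etoh-Dox mice, at 18.8, 16.01, 23.2, 28.3 and 24.9 CPM in ASAH+ Etoh-Dox mice, and at 21.1, 21.9, 24.7 and 35.1 CPM in ASAH+ Etoh mice. Its lowest and highest values came from uninduced mice, and the groups overlapped.

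**Figure D3:**
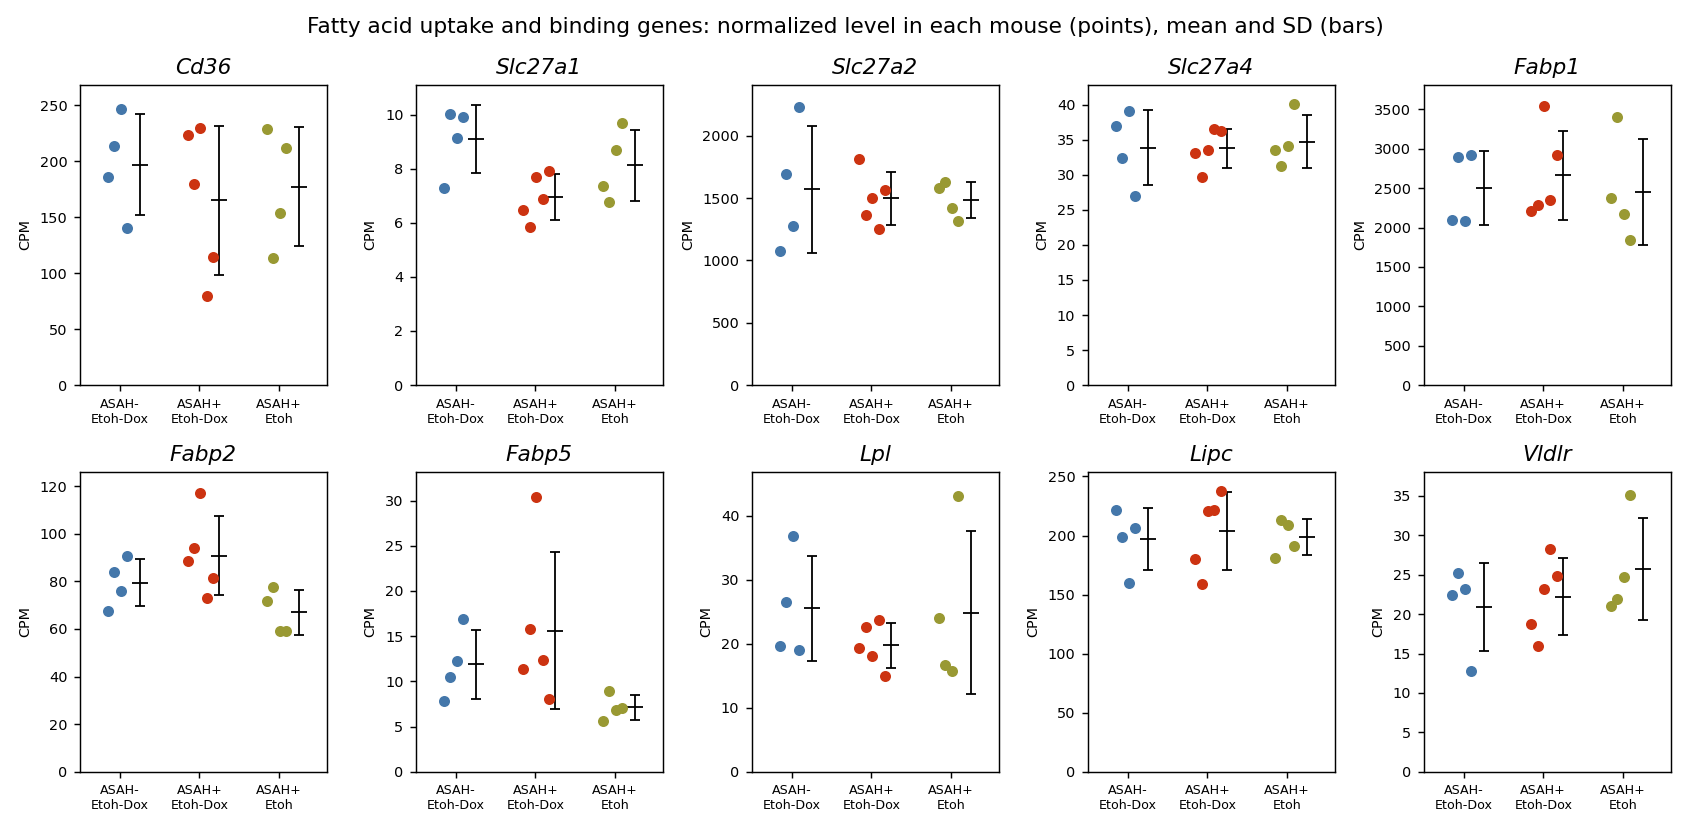
Level of each of the 10 genes in CPM, with 1 point per mouse and the mean and SD of each group as bars. The groups overlap for each gene. For Fabp2 and Fabp5 the ASAH+ Etoh mice lie low, with means of 67.0 and 7.12 CPM against 90.8 and 15.6 CPM in ASAH+ Etoh-Dox mice.

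The first comparison asked what the transgene changed when Dox was given to all mice, ASAH+ Etoh-Dox against ASAH- Etoh-Dox. Slc27a1 had the largest difference relative to its error: it averaged 6.96 ± 0.857 CPM (SD, n = 5) with the transgene and 9.08 ± 1.26 CPM (SD, n = 4) without it. The log2 fold change was -0.40 (SE 0.14), and the induced mouse was the lower of 18 of 20 pairs. Its p was 0.0397 by a two-sided exact permutation test, in which 5 mice against 4 can give no p below 0.00794. By the quasi-likelihood test of edgeR, with adjustment by Benjamini-Hochberg over all genes, the unadjusted p was 0.0113 and the adjusted p 0.9997, so the difference did not pass the threshold of 0.1. Sums of stellate cell markers ran lower with the transgene as well, with overlap (234 to 293 CPM beside 281 to 358 CPM). So did those of hepatocyte markers (82166 to 116837 CPM beside 111221 to 129499 CPM). The part of these markers in the value of Slc27a1 was not tested. Fabp5 had a log2 fold change of 0.38 (SE 0.33, 95% interval -0.34 to 1.10), which was -0.001 without the induced replicate 3. Lpl had -0.38 (SE 0.29, interval -1.02 to 0.25), or -0.15 without ASAH- Etoh-Dox replicate 3.

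Cd36 had a log2 fold change of -0.27 (SE 0.31, interval -0.94 to 0.40) in this comparison. Without ASAH- Etoh-Dox replicate 3 it was -0.13, and over all fits with 1 mouse left out it ran from -0.41 without the induced replicate 3 to -0.09 without the induced replicate 4. For Fabp2 the log2 fold change was 0.18 (SE 0.13, interval -0.10 to 0.47), or 0.08 without the induced replicate 3. The other 5 genes had values from -0.08 for Slc27a2 to 0.08 for Fabp1, and the widest of their intervals, that of Vldlr, ran from -0.40 to 0.55. Without ASAH- Etoh-Dox replicate 3 the direction turned for Slc27a4 (from -0.02 to 0.07) and for Lipc (from 0.04 to -0.04). Vldlr turned from 0.08 to -0.10 without ASAH- Etoh-Dox replicate 4, Fabp1 from 0.08 to -0.03 without the induced replicate 3, and Slc27a2 from -0.08 to 0.14 without ASAH- Etoh-Dox replicate 4. None of the 10 genes passed edgeR's test in this comparison, against 0.014% of all tested genes, 2 of 14317, which were Asah1 and Sod1. At an unadjusted p under 0.05 the counts were 1 of 10 and 409 of 14317 (2.86%). DESeq2 and limma-voom on all 13 mice also called 0 of the 10, beside 11 and 2 of all genes. The median log2 fold change was 0.01 over the 10 genes and -0.002 over all genes, and the median size regardless of sign was 0.13 and 0.10.

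The second comparison varied Dox within the ASAH+ genotype, ASAH+ Etoh-Dox against ASAH+ Etoh. Dox also induced the transgene in these mice, and Asah1 was higher with it by 8.10 on the log2 scale (SE 0.21). Differences with Dox in ASAH+ mice thus cannot be told apart from those with induction. Fabp5 and Fabp2 had the smallest unadjusted p of the 10 genes here. Fabp5 averaged 15.6 ± 8.70 CPM (SD, n = 5) with Dox and 7.12 ± 1.37 CPM (SD, n = 4) without, a log2 fold change of 1.12 (SE 0.35, interval 0.37 to 1.87) or 2.18-fold. The induced mouse was the higher of 19 of 20 pairs, with a two-sided exact permutation p of 0.0317. Without the induced replicate 3 the log2 fold change was 0.73. Fabp2 averaged 90.8 ± 16.7 CPM (SD, n = 5) with Dox and 67.0 ± 9.45 CPM (SD, n = 4) without, a log2 fold change of 0.43 (SE 0.13, interval 0.15 to 0.72) with 19 of 20 pairs higher and an exact permutation p of 0.0317. It was 0.32 without the induced replicate 3.

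Neither gene passed the threshold, as the quasi-likelihood test of edgeR, with adjustment by Benjamini-Hochberg, gave an unadjusted p of 0.00656 for Fabp5 and 0.00582 for Fabp2, and an adjusted p of 0.512 for each. Fabp5 was called by DESeq2 fitted to these groups alone (adjusted p = 0.0856, against 0.0856 to 0.902 over all 23 alternatives), and by none of the other alternatives. Red cell markers were lower in each mouse without Dox as well, and their part was not tested. Of the other 8 genes Lpl had -0.34 (SE 0.29, interval -0.97 to 0.30), Slc27a1 -0.23 (SE 0.14, interval -0.52 to 0.07) and Vldlr -0.21 (SE 0.22, interval -0.69 to 0.26). Without ASAH+ Etoh replicate 4 Lpl turned to 0.06, and Vldlr and Slc27a1 were at -0.03 and -0.14. Fabp1, Cd36, Slc27a4, Lipc and Slc27a2 had log2 fold changes of 0.12, -0.11, -0.04, 0.03 and 0.01. Each of these 5 turned in direction without 1 mouse or another, Cd36 to 0.07 without the induced replicate 4 and Fabp1 to -0.01 without the induced replicate 3.

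In this comparison 0 of the 10 genes passed edgeR's test, against 0.014% of all tested genes, again Asah1 and Sod1. An unadjusted p under 0.05 was found for 2 of 10 and for 1044 of 14317 genes (7.29%). DESeq2 on all 13 mice and limma-voom called 0 of the 10, beside 95 and 2 of all genes, and DESeq2 on the compared groups called 1, Fabp5, beside 113 of all genes. The median log2 fold change was -0.02 over the 10 genes and 0.01 over all genes.

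The third comparison set the uninduced groups against each other, ASAH- Etoh-Dox against ASAH+ Etoh, which differ both in Dox and in the presence of the transgene. Asah1 differed by 0.09 on the log2 scale (SE 0.15, interval -0.24 to 0.41). Fabp5 averaged 11.9 ± 3.79 CPM (SD, n = 4) in ASAH- Etoh-Dox mice and 7.12 ± 1.37 CPM (SD, n = 4) in ASAH+ Etoh mice, a log2 fold change of 0.74 (SE 0.36, interval -0.04 to 1.52) with 15 of 16 pairs higher. Its two-sided exact permutation p was 0.0571, where 4 mice against 4 can give no p below 0.0286, and the quasi-likelihood test of edgeR, with adjustment by Benjamini-Hochberg, gave an adjusted p of 0.564. Fabp2 had a log2 fold change of 0.25 (SE 0.14, interval -0.05 to 0.55) and an exact permutation p of 0.143. Without ASAH- Etoh-Dox replicate 3 these values were 0.72 and 0.27. Red cell markers were higher in each ASAH- Etoh-Dox mouse than in each ASAH+ Etoh mouse here too, and so were Kupffer cell markers (314, 318, 665 and 405 CPM beside 313, 246, 268 and 285 CPM in sum). Their part in the values of Fabp5 and Fabp2 was not tested.

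Vldlr had a log2 fold change of -0.29 (SE 0.23, interval -0.79 to 0.21) between the uninduced groups, which was -0.11 without ASAH- Etoh-Dox replicate 4. Slc27a1 had 0.17 (SE 0.14, interval -0.14 to 0.48), or 0.09 without ASAH+ Etoh replicate 2. Cd36 had 0.16 (SE 0.33, interval -0.55 to 0.87), which was 0.02 without ASAH- Etoh-Dox replicate 3 and -0.006 without ASAH+ Etoh replicate 2. Without the former mouse Lpl turned from 0.05 to -0.19 and Lipc from -0.01 to 0.08. Slc27a2, Fabp1 and Slc27a4 had 0.08, 0.03 and -0.03, and each turned in direction without 1 mouse or another. None of the 10 genes passed edgeR's test, against 0.014% of all tested genes, which were mt-Co2 and mt-Co3. At an unadjusted p under 0.05 the counts were 0 of 10 and 1316 of 14317 (9.19%), and DESeq2 and limma-voom on all 13 mice called 0 of the 10, beside 173 and 2 of all genes. The median log2 fold change was 0.07 over the 10 genes and 0.02 over all genes.

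**Figure D4:**
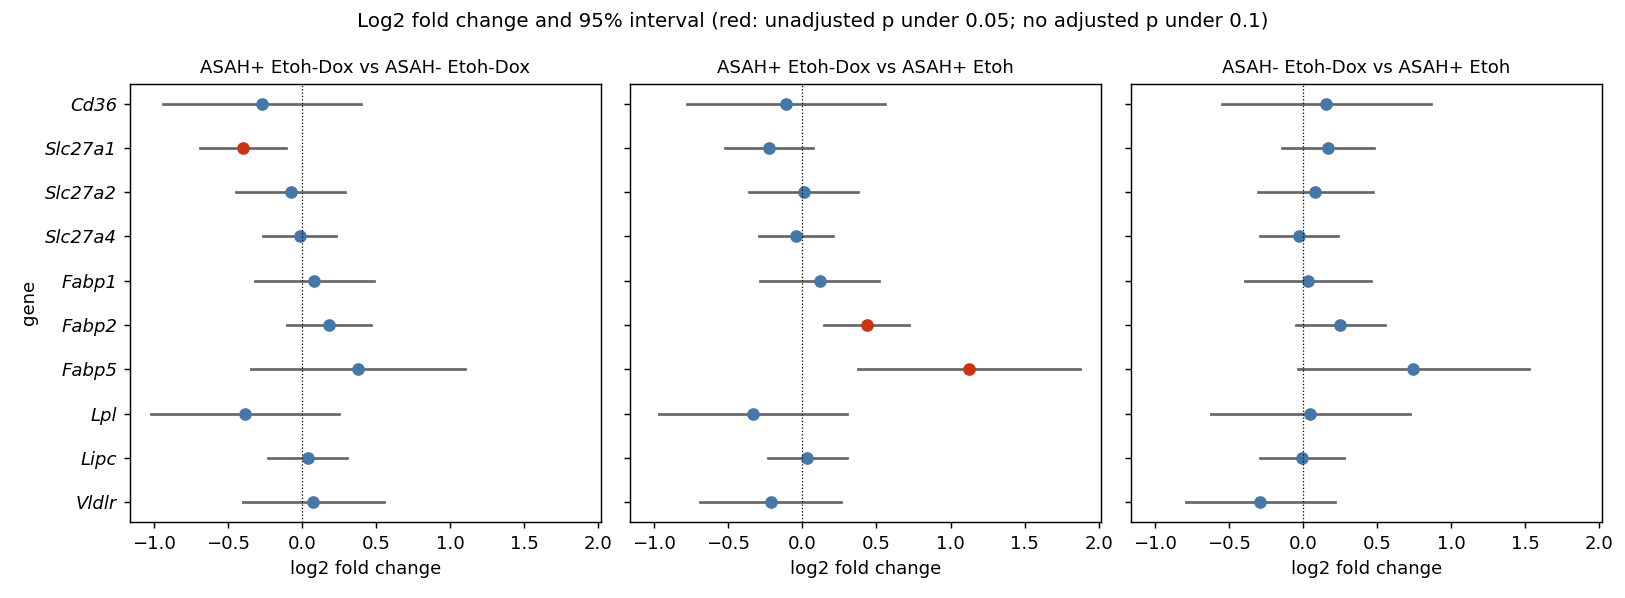
Log2 fold change of each gene in the 3 comparisons with its 95% interval; points in red had an unadjusted p under 0.05 by edgeR's test. Slc27a1 is red in the first panel at -0.40, and Fabp2 at 0.43 and Fabp5 at 1.12 are red in the second.

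The comparisons share mice, so their values are not independent. Fabp5 had log2 fold changes of 0.38, 1.12 and 0.74 in the order given above, Fabp2 0.18, 0.43 and 0.25, and Slc27a1 -0.40, -0.23 and 0.17. For Fabp5 and Fabp2 the mice without Dox were the low group, and for Slc27a1 the induced mice were. Whether the difference of a gene in one comparison exceeded that in another was not tested. A p that misses the threshold does not show that the groups were alike. The interval of Cd36 in the first comparison, -0.94 to 0.40, holds levels from 0.523-fold to 1.32-fold.

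Other genes of the same pathway, in 5 lists of 54 genes, gave 43 that were tested. None was called by edgeR in any of the 3 comparisons, and an unadjusted p under 0.05 was found for 3, 6 and 3 of them. These are 6.98%, 14% and 6.98% of the 43, beside 2.86%, 7.29% and 9.19% of all tested genes. Their median log2 fold changes were -0.03, -0.07 and -0.01. Of relatives of the transporters and binding proteins 7 of 14 were tested, with 0 of 7 at an unadjusted p under 0.05 in each comparison. Fabp4, the binding protein of fat cells and macrophages, had a log2 fold change of -0.43 (SE 0.26) with the transgene, which was -0.03 without ASAH- Etoh-Dox replicate 3, and Dbi, which binds acyl-CoA, had 0.19 (SE 0.13), or 0.09 without ASAH- Etoh-Dox replicate 4. With Dox in ASAH+ mice Cav1 had -0.41 (SE 0.22), or -0.23 without ASAH+ Etoh replicate 4, and Dbi 0.18 (SE 0.13), or 0.09 without the induced replicate 3. The sum of endothelial markers ran lower with Dox as well (109 to 154 CPM beside 137 to 184 CPM), and their part in the value of Cav1 was not tested. Between uninduced groups Fabp7 had 0.43 (SE 0.28), or 0.21 without ASAH- Etoh-Dox replicate 3, and Slc27a5, the transporter that also conjugates bile acids to coenzyme A, -0.04 (SE 0.09), or -0.10 without ASAH+ Etoh replicate 2 and -0.01 without ASAH+ Etoh replicate 3.

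Of the acyl-CoA synthetases, which trap fatty acids as coenzyme A esters, 4 of 7 were tested. Acsl5 had log2 fold changes of 0.12 (SE 0.13), 0.30 (SE 0.13, unadjusted p = 0.0337 by edgeR) and 0.18 (SE 0.13) in the 3 comparisons. Without the induced replicate 3 the first of these was -0.002 and the second 0.16, and without ASAH- Etoh-Dox replicate 1 the last was 0.11. Acsl4 had -0.09 (SE 0.18) in the first, and Acsl3 -0.14 (SE 0.25) and -0.17 (SE 0.26) in the others. Without ASAH- Etoh-Dox replicate 4 Acsl4 turned to 0.11, and without ASAH+ Etoh replicate 2 Acsl3 turned to 0.14 and 0.12. All 10 genes listed as partners of the lipases were tested. Apoc3, an inhibitor of lipoprotein lipase, had -0.26 (SE 0.08, unadjusted p = 0.00777) with the transgene and -0.22 (SE 0.08, unadjusted p = 0.0190) with Dox in ASAH+ mice. Apoc2, its activator, had -0.43 (SE 0.11, unadjusted p = 0.00148) with Dox in ASAH+ mice and -0.34 (SE 0.11, unadjusted p = 0.0101) between uninduced groups.

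Apoc2 did not pass the quasi-likelihood test of edgeR, with adjustment by Benjamini-Hochberg in ASAH+ mice with and without Dox (adjusted p = 0.473), while DESeq2 gave an adjusted p of 0.0241 on all mice and 0.0214 on the compared groups, against a range up to 0.862 over 23 alternatives. Gpihbp1, which holds lipoprotein lipase at the capillary wall, had -0.46 (SE 0.17, unadjusted p = 0.0160) with the transgene, or -0.28 without ASAH- Etoh-Dox replicate 3, the mouse with the highest endothelial markers. Angptl8 had 0.71 (SE 0.50) between uninduced groups, or 0.44 without ASAH- Etoh-Dox replicate 1.

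Of the lipoprotein receptors and their partners 8 of 9 were tested, none with an unadjusted p under 0.05. Sorl1 had 0.25 (SE 0.26) and Lsr 0.08 (SE 0.09) with the transgene, Lrp1 -0.20 (SE 0.12) and Lsr 0.14 (SE 0.09) with Dox in ASAH+ mice, and Sdc1 -0.24 (SE 0.25) and Lrp1 -0.19 (SE 0.13) between uninduced groups. With 1 mouse left out, Sorl1 was at 0.07 without ASAH- Etoh-Dox replicate 4 and Lsr at 0.02 without ASAH- Etoh-Dox replicate 3 in the first of these comparisons. Between uninduced groups Sdc1 was at -0.06 without ASAH+ Etoh replicate 4, and Lrp1 at -0.12 without ASAH- Etoh-Dox replicate 4. All 14 regulators were tested. Pparg, a nuclear receptor that activates Cd36 and Lpl in other tissues, had 0.32 (SE 0.12, unadjusted p = 0.0209) with the transgene and 0.31 (SE 0.12, unadjusted p = 0.0261) with Dox in ASAH+ mice. Prkci, an atypical protein kinase C, had 0.14 (SE 0.09) with the transgene. Ppard had 0.40 (SE 0.15, unadjusted p = 0.0208) with Dox in ASAH+ mice and 0.39 (SE 0.16, unadjusted p = 0.0291) between uninduced groups, where Nr1h3 had 0.17 (SE 0.08, unadjusted p = 0.0371).

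The mice also differed in the phase of the liver clock as read from Dbp, which peaks toward evening in nocturnal mice, and Arntl, which peaks in antiphase. The log2 ratio of Dbp to Arntl was -0.96, 6.49, 1.81 and 6.11 in ASAH- Etoh-Dox mice, 6.64, 6.78, -1.64, 0.15 and 2.70 in ASAH+ Etoh-Dox mice, and 4.45, 6.06, 5.05 and 1.60 in ASAH+ Etoh mice. Mice of each group were thus spread along the ratio, and the labels give no time of collection. A slope on this ratio was fitted beside the group means. None of the 10 genes passed edgeR's test of the slope, whereas 9.56% of all tested genes did (1369 of 14315). At an unadjusted p under 0.05 the counts were 3 of 10 and 2844 of 14315 (19.9%). For the slope on the Dbp-Arntl ratio DESeq2 on all 13 mice called 3 of the 10, beside 1751 of all genes, and limma-voom on all 13 mice called 0, beside 1408 of all genes.

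Slc27a2 had a slope of 0.0586 on the log2 scale per unit of the ratio (SE 0.0197), Slc27a4 had a slope of -0.0396 (SE 0.0132) and Vldlr a slope of -0.0698 (SE 0.0262). Their adjusted p by the quasi-likelihood test of edgeR, with adjustment by Benjamini-Hochberg, was 0.104, 0.103 and 0.151. By DESeq2 on all mice the adjusted p was 0.0502 for Slc27a2, 0.0608 for Slc27a4 and 0.0819 for Vldlr, and over 20 alternatives it ran from 0.0364 to 0.397, from 0.0335 to 0.432 and from 0.0213 to 0.354. The calls of Slc27a2, Slc27a4 and Vldlr, whose adjusted p lay near the threshold, differed with the tool, the filter and single mice. With 10 or more counts asked of each mouse edgeR called Slc27a2 and Slc27a4, and with DESeq2's size factors or with Asah1 left out of the totals it called Slc27a4. Without the induced replicate 3, the mouse with the lowest ratio, edgeR called Slc27a2, Slc27a4 and Fabp2 (adjusted p = 0.0411, 0.0335 and 0.0460). Without the induced replicate 2 it called Slc27a2 alone, and without ASAH- Etoh-Dox replicate 2 Vldlr alone.

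The slopes of the other genes had an unadjusted p of 0.134 or more by edgeR: -0.00889 (SE 0.0456) for Cd36, -0.0118 (SE 0.0202) for Slc27a1, 0.00841 (SE 0.0280) for Fabp1, 0.0119 (SE 0.0189) for Fabp2 (0.0489 without the induced replicate 3), -0.0300 (SE 0.0483) for Fabp5, -0.0396 (SE 0.0433) for Lpl and -0.0268 (SE 0.0168) for Lipc. Slc27a2 on the one side and Slc27a4 and Vldlr on the other were those with an unadjusted p under 0.05 for the ratio. Pairs among them had r of 0.86, -0.75 and -0.63 within groups. Slc27a4 with Fabp2 also had r of -0.63, but Fabp2 had an unadjusted p of 0.538 for the ratio by edgeR. Whether the ratio accounts for those pairs was not tested.

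**Figure D5:**
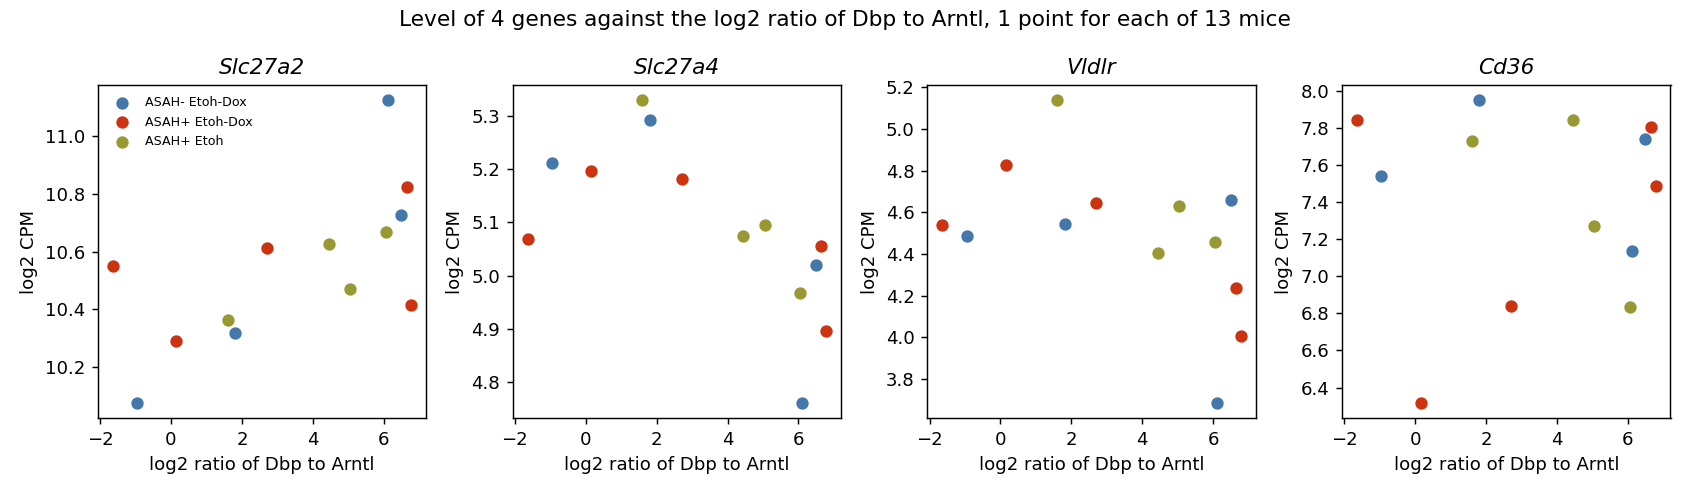
Log2 CPM of Slc27a2, Slc27a4, Vldlr and Cd36 against the log2 ratio of Dbp to Arntl, with 1 point per mouse coloured by group. The slopes are 0.0586 for Slc27a2, -0.0396 for Slc27a4, -0.0698 for Vldlr and -0.00889 for Cd36.

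Of the 43 other pathway genes 7 passed edgeR's test of the slope, 16.3% beside 9.56% of all tested genes. Among them Ppara (0.0525, SE 0.0154) and Cebpa (0.0427, SE 0.0128) rose with the ratio. Those that fell were Sdc1 (-0.104, SE 0.0197), Ppargc1a (-0.0881, SE 0.0237) and Acsl5 (-0.0478, SE 0.0128). By the quasi-likelihood test of edgeR, with adjustment by Benjamini-Hochberg, the smallest adjusted p was that of Sdc1, 0.00728, and the largest that of Cebpa, 0.0693. Without ASAH- Etoh-Dox replicate 1, a mouse with a low ratio, Ppara, Cebpa, Ppargc1a and Acsl5 did not pass (adjusted p = 0.277, 0.274, 0.234 and 0.108). In lists where fewer than 2 genes passed, those with the smallest p that did not pass were Dbi at -0.0427 (SE 0.0156), Acsl3 at 0.0778 (SE 0.0289), Lipg at 0.0653 (SE 0.0265), Angptl4 at -0.0385 (SE 0.0158) and Cav1 at -0.0552 (SE 0.0279), with an adjusted p of 0.135, 0.149, 0.188, 0.189 and 0.294 by edgeR.

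The tested genes whose within-group pattern was most like that of each gene were sought by Pearson's r among 11112 genes over the 13 mice, as a description. For Cd36 they were Sult2a3 (r = 0.94), Sult2a1 (0.93) and Zc3h13 (0.92). For Slc27a2 the closest were Vwa8 (0.96) and Acad11 (0.94). Slc27a4 was most like Rfng (0.99), Adgrg1 (0.95) and Pomt1 (0.95). Slc27a1 had no gene as close, with 9130401M01Rik (0.84), 1190007I07Rik (0.83) and Gm17018 (0.82) leading.

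For Fabp1 the closest were Iqcb1 (0.94), Apoa1 (0.93) and Acsl1 (0.92), of which Apoa1 encodes the main protein of high-density lipoproteins and Acsl1 the main long-chain acyl-CoA synthetase of liver. Fabp2 was most like Mpc1 (0.94), a subunit of the mitochondrial pyruvate carrier, Gm26684 (0.90) and Zfp386 (0.89), and Fabp5 most like Nup93 (0.92), Nkapd1 (0.90) and 1600012H06Rik (0.88). Among the lipases, Lpl was most like Nudt18 (0.97), Fbln2 (0.94) and Prps2 (0.94), and Lipc most like Apoh (0.95), C730027H18Rik (0.92) and Rdh7 (0.92). Vldlr was most like Rtl8a (0.94), Ubxn1 (0.94) and Cox14 (0.94). How high an r chance alone would give among so many candidates was not tested.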

How the data were processed

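Stranded mRNA libraries (TruSeq) from the livers of 13 mice were sequenced. The authors quantified reads with salmon (version not given in the sources used here) against GENCODE M19 transcripts on GRCm38.p6 and summed them to genes with tximport. What they deposited is a table of estimated counts per gene, 100% whole numbers and unscaled for library size; average transcript lengths were not used. Group membership followed the descriptions of the samples and their induction labels. Totals were 17819486 to 35358711 counts per mouse, and intervals from counts cover counting error only in part, since without molecular identifiers reads cannot be equated with molecules. Replicates were different libraries: over 22 pairs, chi-square between counts divided by degrees of freedom was 19.1 to 107.

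The filterByExpr function of edgeR 4.0.16 (R 4.3.3), given the 3 groups, retained 14317 of 53392 genes. After TMM normalization, 3 group means over all mice were fitted by robust quasi-likelihood. Benjamini-Hochberg adjustment covered every tested gene, and the threshold was 0.1. Each standard error was derived from the F statistic and its log2 fold change. Single genes were also compared by an exact two-sided permutation of mice on mean log2 CPM (prior count 2). The slope on the log2 ratio of Dbp to Arntl was fitted beside the group means, leaving those 2 genes out of its counts. The steps were tested on simulated data.

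The members and lists were chosen with earlier results of these data known. Genes named came from the 10, Asah1, each list gene past the threshold and the 2 with the smallest p per list and comparison, and the 3 genes most like each of the 10 among those with a mean log2 CPM above 1. Sod1, mt-Co2 and mt-Co3 were named after their values were seen. The lists were relatives of the transporters and binding proteins, acyl-CoA synthetases, lipase partners, lipoprotein receptors and regulators, with marker lists of 9 cell types. The alternatives tried included DESeq2 1.42.0 (all mice, or the compared groups), limma-voom (limma 3.58.1), DESeq2's size factors in edgeR, edgeR on the compared groups, no filter, a filter of 10 or more counts in each mouse, totals without Asah1, the replicate number as a block, the Dbp-Arntl ratio as a covariate, a threshold of 0.05, a prior count of 0.5, the longest transcript for length, and each mouse left out in turn. Gene positions were those of GENCODE M21 (GRCm38), which holds 53355 of the gene identifiers, and promoter sequences from RefSeq on GRCm38.p6.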

Additional observations from a re-analysis of the deposited data

Results flagged for a closer look

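The levels of the 10 genes and Asah1, the Dbp-Arntl ratio and the sums of 5 marker lists, 17 measures in 51 groups of mice, held 0 mice whose gap to the next exceeded Dixon's critical value, a gap that chance gives in about 1 of 20 groups.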

How the results depend on the processing

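For the 60 log2 fold changes named, 1326 of 1380 alternative values kept direction and side of the threshold, 3 passed the threshold in addition and 51 turned in direction, of which none was called. For 10 slopes, those of Slc27a2, Slc27a4, Vldlr and the 7 pathway genes that passed, 165 of 200 values kept both, 11 passed in addition, 24 no longer passed and 0 turned. The slopes of the other members are not in these counts, and of them Fabp2 passed without ASAH+ Etoh-Dox replicate 3. The 30 exact permutation p-values kept their side of 0.05 with a prior count of 0.5, and 4 of 10 levels per kilobase moved by more than their SD with the longest transcript (Slc27a1 to 2.48, Slc27a2 to 520, Lpl to 5.61 and Vldlr to 2.87). With 4 or 5 mice in a group intervals were wide: that of Slc27a4, the gene with the least spread, was -0.29 to 0.20 in the second comparison.

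The replicate numbers belong to different animals and did not pair the mice. Same-numbered mice had mean correlations of -0.133, 0.057 and -0.062 in their deviations from group means in the 3 comparisons, and other pairs 0.033, -0.014 and 0.021. In a fit with replicate numbers as a block, the first comparison gave -0.0319 for Lipc, -0.0116 for Vldlr and 0.0144 for Acsl4, and the second -0.00781 for Slc27a2 and -0.0394 for Lipc. Genes called under this block numbered 1 in the first comparison, 0 in the third and 501 for the slope, where none of the 7 pathway genes passed.

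In the second comparison Slc27a2 turned to -0.00296 by DESeq2 on all mice, -0.00296 with its size factors in edgeR and -0.00112 by DESeq2 on the compared groups, and Lipc to -0.0130 with the Dbp-Arntl ratio as a covariate. Genes called in the 3 comparisons numbered 11, 95 and 173 by DESeq2 on all mice and 11, 113 and 177 by DESeq2 on the compared groups, where Fabp5 was the 1 called of the 10 genes. With Asah1 left out of the totals they numbered 1 in the first and 1 in the second. That setting also took Asah1 itself out of the genes tested, so it could not be called. They numbered 4 in the second with no filter, 1 in the first and 0 in the third by edgeR on the compared groups. In the third they numbered 1 with the ratio as a covariate and 0 at a threshold of 0.05. For the slope, 845 genes passed a threshold of 0.05, and of the 10 genes 3 passed by DESeq2, 1 with its size factors in edgeR (Slc27a4), 2 with 10 or more counts in each mouse (Slc27a2 and Slc27a4) and 1 with Asah1 left out (Slc27a4). Apart from the removal of Asah1 from the genes tested, the cause was not tested in any of these cases.

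Leaving out each mouse in turn, log2 fold changes ran in the first comparison from -0.207 to 0.137 for Slc27a2, -0.115 to 0.0662 for Slc27a4, -0.0344 to 0.158 for Fabp1, -0.00118 to 0.592 for Fabp5, -0.0432 to 0.118 for Lipc, -0.105 to 0.172 for Vldlr, -0.00243 to 0.178 for Acsl5 and -0.177 to 0.112 for Acsl4. In the second they ran from -0.274 to 0.0661 for Cd36, -0.0750 to 0.0659 for Slc27a2, -0.0943 to 0.0253 for Slc27a4, -0.0145 to 0.314 for Fabp1, -0.511 to 0.0568 for Lpl, -0.0402 to 0.109 for Lipc and -0.310 to 0.144 for Acsl3. In the third they ran from -0.00592 to 0.306 for Cd36, -0.129 to 0.208 for Slc27a2, -0.111 to 0.0711 for Slc27a4, -0.0939 to 0.232 for Fabp1, -0.188 to 0.431 for Lpl, -0.0914 to 0.0761 for Lipc and -0.392 to 0.116 for Acsl3. Genes called ran from 1 to 2 in the first comparison (1 without ASAH- Etoh-Dox replicate 1, 3 or 4), from 2 to 8 in the second (8 without ASAH+ Etoh replicate 2), from 0 to 2 in the third (2 only without ASAH- Etoh-Dox replicate 4) and from 630 to 1606 for the slope (630 without ASAH- Etoh-Dox replicate 1, 898 without ASAH+ Etoh-Dox replicate 4). Of the 10 genes 0 were called in each comparison, and 0 to 3 for the slope. Slope calls were lost for Acsl5 without ASAH- Etoh-Dox replicate 1 or ASAH+ Etoh-Dox replicate 1 or 3, for Ppargc1a without ASAH- Etoh-Dox replicate 1 or 4, for Ppara without ASAH- Etoh-Dox replicate 1 or 4 or ASAH+ Etoh-Dox replicate 1, 2 or 4, and for Cebpa without ASAH- Etoh-Dox replicate 1 or 2 or ASAH+ Etoh-Dox replicate 2, 3 or 4.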
